A study of Mus musculus with 6 samples.

Results

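The Hoxb cluster of the mouse was described from CpG methylation in obstructed, drug-treated and sham-operated kidneys. It was taken as the CpG sites of chromosome 11 that start between positions 96050000 and 96232000 of the mm9 genome build and that had at least 10 reads in every library. These were 716 of the 943307 sites of the genome that met the same read minimum, or 0.0759%. They filled 57 of the 89813 genomic windows of 1 kb that held at least 3 such sites. The stretch was chosen by position only, from Hoxb13 at low positions to Hoxb1 at high positions.

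The assay was reduced representation bisulfite sequencing (RRBS), in which MspI cuts the DNA at CCGG, short fragments are retained and bisulfite conversion shows which cytosines were methylated. All 6 libraries came from kidney cortex and outer medulla of male wild-type C57BL/6J mice, and no gene was altered in any group. The saline group (n = 2) had unilateral ureteral obstruction (UUO), a ligation and section of the left ureter that is a standard model of kidney fibrosis, for 7 days with daily saline. The 5AZA group (n = 2) had the same 7 days of obstruction with 1 mg/kg per day of the drug that the labels call 5AZA, injected into the abdomen in saline. The sham group (n = 2) had similar surgery without ligation: sham 1 belongs to the obstruction experiment, and sham 2, whose name gives 48 hours, to one on ischemia/reperfusion. Ages are not given, and no label says whether the libraries of a group came from separate mice. The p-values below therefore measure only the spread between these libraries, which may be technical. Whole tissue was used, so that a changed share of a cell type and a changed methylation within cells cannot be told apart. The series asked which genes differ in methylation in kidney fibrosis.

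Hox genes encode homeodomain transcription factors that give cells their position along the head-to-tail axis of the embryo. Within a cluster they stand in the order of the body regions in which they act, and in many adult tissues an active stretch is marked by unmethylated CpG islands while silent stretches carry repressive marks or methylation. At the high-position end, Hoxb1 and Hoxb2 act in the hindbrain, and Hoxb3 and Hoxb4 in the hindbrain and neck, Hoxb4 also being known from blood stem cells. In the middle, Hoxb5 to Hoxb9 act in the trunk, and Hoxb7 is expressed in the ureteric bud and the collecting duct of the kidney. At the low-position end Hoxb13, known from the prostate and the tail bud, stands apart from the others. Among these genes lie noncoding transcripts, of which Gm30134 follows Hoxb13 and Gm51876 precedes Hoxb9. Ordered by their low ends, Hoxb3os (Hoxb3 opposite strand) comes between Hoxb4 and Hoxb2, and its span overlaps that of Hoxb2.

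The files give mm9 positions without genes, so gene starts were found by letters instead of by converted coordinates. A RefSeq sequence around a gene start (GRCm38.p6, from 250 bases before to 50 bases after it) was laid along the CpG positions of the files and placed where every position seen fell on a CpG of the sequence and at least 8 did. Of the 10 Hoxb genes, 3 had such a sequence (Hoxb8, Hoxb4 and Hoxb1), and none could be placed. Their best positions matched 4, 4 and 3 CpGs. The levels of single Hoxb genes are therefore not given here. Placed with a unique position were 3 starts of Gm30134, whose first start matched 17 of 21 CpGs with the next best position at 5, and Hoxb3os, which matched 14 of 19 CpGs with the next best at 4. Gm51876 matched 5 of 7 CpGs, with the next best at 3, which is below the minimum, and serves only as a rough landmark.

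The sequences below are shown to compare CpG sites inside CCGG with CpG sites outside it in the same windows. The first 2 hold sites of very different values, the third is a stretch without CCGG, and the last is one where both kinds of site were methylated. They are RefSeq sequences of GRCm38.p6 on the minus strand, and capitals mark CCGG, the MspI recognition sequence. Given are the mm9 positions of their best match, which for Gm51876 was below the minimum for placement. The first runs over the bases before the first Gm30134 start, chr11:96064743-96064992. The second spans the Hoxb3os start, chr11:96214683-96214712, and the third lies before that start, chr11:96214739-96214768. The last lies before the Gm51876 start, chr11:96130436-96130565.
Gm30134 upstream: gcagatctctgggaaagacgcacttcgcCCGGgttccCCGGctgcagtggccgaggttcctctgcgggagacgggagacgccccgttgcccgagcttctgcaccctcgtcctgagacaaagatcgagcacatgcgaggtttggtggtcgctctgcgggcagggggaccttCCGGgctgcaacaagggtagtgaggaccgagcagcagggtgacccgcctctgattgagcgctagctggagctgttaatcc
Hoxb3os with CCGG: gagcattgtgcagCCGGggctcgatgcgcc
Hoxb3os without CCGG: tgccgctcggggcaggcgtcttcgggtagg
Gm51876 upstream: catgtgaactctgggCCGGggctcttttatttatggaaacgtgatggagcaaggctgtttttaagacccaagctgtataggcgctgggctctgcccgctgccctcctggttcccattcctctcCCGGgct

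CpGs outside CCGG were nearly unmethylated at Gm30134 and Hoxb3os in every group, and CpGs inside CCGG were not. In the Gm30134 sequence the CCGG at position 96064820, 78 bases before the start, read 64.0% and 73.0% methylated in saline 1 and 2, 63.1% and 70.8% in sham 1 and 2, and 63.9% and 58.9% in 5AZA 1 and 2, on 72 to 175 reads. Its neighbour outside CCGG at 96064837 read 1.02% and 1.30% in saline, 1.47% and 0% in sham, and 4.55% and 6.56% in 5AZA. The 6 libraries were alike at both sites, and the gap between the sites was far larger than any gap between libraries. Averaged over its 14 CpGs outside CCGG, the first Gm30134 sequence stood at 4.87% and 3.53% in saline, 3.40% and 2.83% in sham, and 3.24% and 5.34% in 5AZA. The highest of them was the CpG at 96064966, which is 4 bases from a CCGG site and averaged 16.7% over the libraries.

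Hoxb3os, a noncoding RNA gene whose span in the RefSeq table overlaps that of Hoxb2, showed the same division. Its CCGG at 96214786 read 87.0% and 77.3% in saline, 72.7% and 84.0% in sham, and 80.4% and 69.2% in 5AZA. The 95% exact binomial interval of sham 1 ran from 49.8% to 89.3% on 22 reads, so that these 6 values cannot be told apart by counting error. Such intervals cover counting error only, since reads amplified by PCR without molecular identifiers are not independent molecules. The CpG at 96214760, in the Hoxb3os stretch without CCGG, had 1 methylated read of 68 in saline 1 and none in the other 5 libraries. The upper limit of the exact interval for sham 2, with 18 reads, was 18.5%. At Gm51876 both kinds of CpG were methylated: the 3 CpGs outside CCGG averaged 68.9% over the libraries and the CCGG CpGs 85.3%.

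**Figure D1:**
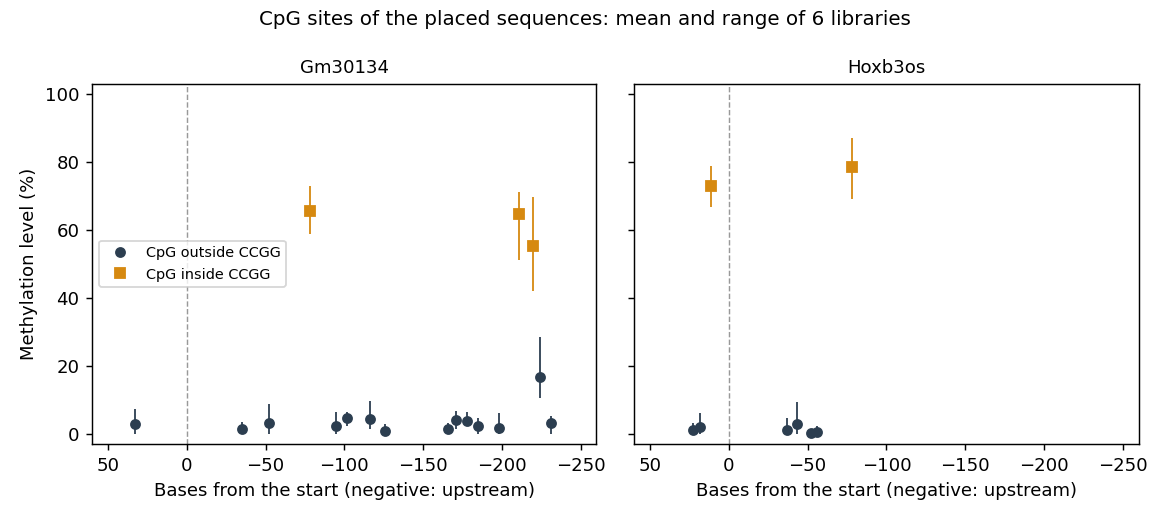
Methylation level in percent (vertical axis) of each CpG site of the first Gm30134 sequence (left) and of Hoxb3os (right) against its distance in bases from the gene start, negative upstream; points are means of 6 libraries and lines run from the lowest to the highest library. CpGs inside CCGG stand between 55.2% and 78.4%, and those outside CCGG at 16.7% or below.

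The division held for most CpGs over all sequences that could be placed. These were Gm30134 and Hoxb3os themselves and sequences of the Hoxa and Hoxd clusters, Hox cofactors and regulators, and cell type markers. Their 48 CpGs inside CCGG averaged from 37.5% to 99.0%, with a median of 74.5%. Of their 254 CpGs outside CCGG, 241 stood under 10%, with a median of 1.68% and a highest value of 43.0%, so the ranges overlapped. The extraction protocol states that fragment ends were filled with methylated dCTP, and its part in the level of CCGG sites was not tested. CCGG sites could be read off only where a sequence was placed, so elsewhere candidates were found from coverage and from their neighbours. A candidate fragment end was a site with coverage within 5% of the sum of both neighbours, or a site of at least 30% in a low window. An isolated high site was one at least 30 points above the median of its neighbours within 110 bp, a rule added after the values were seen. Together these rules took 47 of the 48 CCGG CpGs and 2 of the 254 others in the placed sequences. Except for coverage, the rules select on a high level itself, so retained sites read lower than the others in part by construction. In the Hoxb cluster they took 154 of 716 sites, or 21.5%, against 13.7% of all sites. Values are given both over all sites and over the 562 that remained, called retained sites below.

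Library depth ran from 37728517 covering reads, in sham 2, to 76730132, in saline 1, summed over all CpG sites of the genome. Over the 716 Hoxb sites it ran from 24576 reads in sham 2 to 50678 in saline 1, with a median per site of 32 to 66 reads. Sham 2 was the shallowest library and also had the lowest mean level over the genome, 42.9%, where the others had 43.1% to 45.3%. Of the cell type marker lists, Pax2, a kidney epithelial transcription factor gene, was placed at 2 starts with 3.46% and 1.07% outside CCGG, and Kdr, an endothelial receptor gene, at 2.81%. None of the blood and fibroblast marker sequences, nor any of the genes flanking the cluster, could be placed, so that the makeup of the tissue was not checked.

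The Hoxb cluster was less methylated than the RRBS sites of the genome as a whole. Its mean level was 29.6% and 30.3% in saline, 28.4% and 26.6% in sham, and 28.1% and 27.0% in 5AZA, where all 943307 sites had 45.3% and 45.3%, 44.4% and 42.9%, and 43.5% and 43.1%. Of the Hoxb sites 434 (60.6%) averaged under 20%, 207 (28.9%) lay between 20% and 80%, and 75 (10.5%) reached 80% or more. Over all sites those shares were 47.5%, 19.2% and 33.3%, so that highly methylated sites made up a smaller share in the cluster. Retained sites alone averaged 17.7% and 18.3% in saline, 16.5% and 15.1% in sham, and 15.9% and 14.8% in 5AZA. The 154 others averaged 68.5% to 73.9%, a gap that follows in part from the rules.

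With sites weighed equally, both saline libraries stood above both sham and both 5AZA libraries over the cluster, as they did over all sites of the genome. The group means were 29.9% ± 0.44 (SD, n = 2) in saline, 27.5% ± 1.3 in sham and 27.6% ± 0.82 in 5AZA. Saline exceeded sham by 2.44 points and 5AZA lay 2.37 points under saline in mean, a signed difference of -2.37. For each the exact permutation test, two-sided, gave p = 0.33, which is the smallest value that 2 libraries against 2 allow. 5AZA and sham differed by 0.0631 points (exact permutation p = 1.0), less than the spread between libraries. Weighted by reads, that is as methylated reads over all reads of the cluster, saline exceeded sham by only 0.338 points and 5AZA exceeded saline by 0.423. Saline 1, at 26.6%, then lay below sham 1, at 27.0%, and below both 5AZA libraries, at 27.7% and 27.3%. With sites weighed equally, the saline excess over sham was 1.54 points without sham 2.

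Along the cluster the methylation level went up and down in steps that the groups shared. The 4 stretches described next were set by the placed starts of Gm30134 and Hoxb3os and by the rough landmark of Gm51876, after the values were seen. From 96050001 to 96064940, the end that holds Hoxb13 in the gene order, 39 of 47 retained sites (83.0%) averaged under 10%, and the retained mean (± SD, n = 2) was 14.9% ± 0.74 for saline, 12.5% ± 0.44 for sham and 13.7% ± 0.98 for 5AZA. From there to the Gm51876 start at 96130365, the long gap before Hoxb9, the retained mean was the highest of the 4 stretches: 42.1% ± 1.0, 40.5% ± 1.3 and 39.5% ± 0.92 in saline, sham and 5AZA. Only 39.0% of its 77 retained sites stood under 10%.

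From the Gm51876 start to the Hoxb3os start at 96214708 most CpGs were unmethylated. In the gene order this stretch spans Hoxb9, Hoxb8, Hoxb7, Hoxb6, Hoxb5, Hoxb3 and Hoxb4 with the microRNA genes Mir196a-1 and Mir10a, and it reaches into Hoxb2. Of its 404 retained sites 72.0% averaged under 10%, and the mean was 12.9% ± 0.68 in saline, 10.7% ± 0.78 in sham and 10.1% ± 1.1 in 5AZA. The end past the Hoxb3os start, toward Hoxb1, stood higher again, at 29.1% ± 1.8, 25.8% ± 3.2 and 24.7% ± 0.19 over 34 retained sites. In all 4 stretches the saline mean was the highest, above sham by 1.64 to 3.34 points. Sham was the lowest at the Hoxb13 end and 5AZA in the other 3. In steps of 10 kb the retained mean of saline ran from 5.12% (63 sites from 96210001, of which 51 were retained) to 99.4% (3 sites from 96080001).

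Windows of 1 kb showed how sharp these steps were. The read number given for a window is summed over its sites, so a read over several CpGs counts once at each. Retained sites averaged under 10% in every library in 25 of the 57 windows and at least 50% in every library in 6. The window with the most sites, 96133001 to 96134000 between the Gm51876 and Hoxb3os starts (52 sites, 1599 to 4734 reads), averaged 1.84% and 1.91% in saline, 0.667% and 0.652% in sham, and 1.26% and 1.07% in 5AZA over its 42 retained sites. Read over all 52 sites the same window had 16.1% and 16.9%, 15.4% and 15.9%, and 17.8% and 16.7%. The window of the Hoxb3os start, 96214001 to 96215000 (35 sites, 29 retained), likewise averaged 1.06% to 1.86% over retained sites in all 6 libraries. In both windows most of the level over all sites came from sites set aside by the rules, which select in part on a high level.

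**Figure D2:**
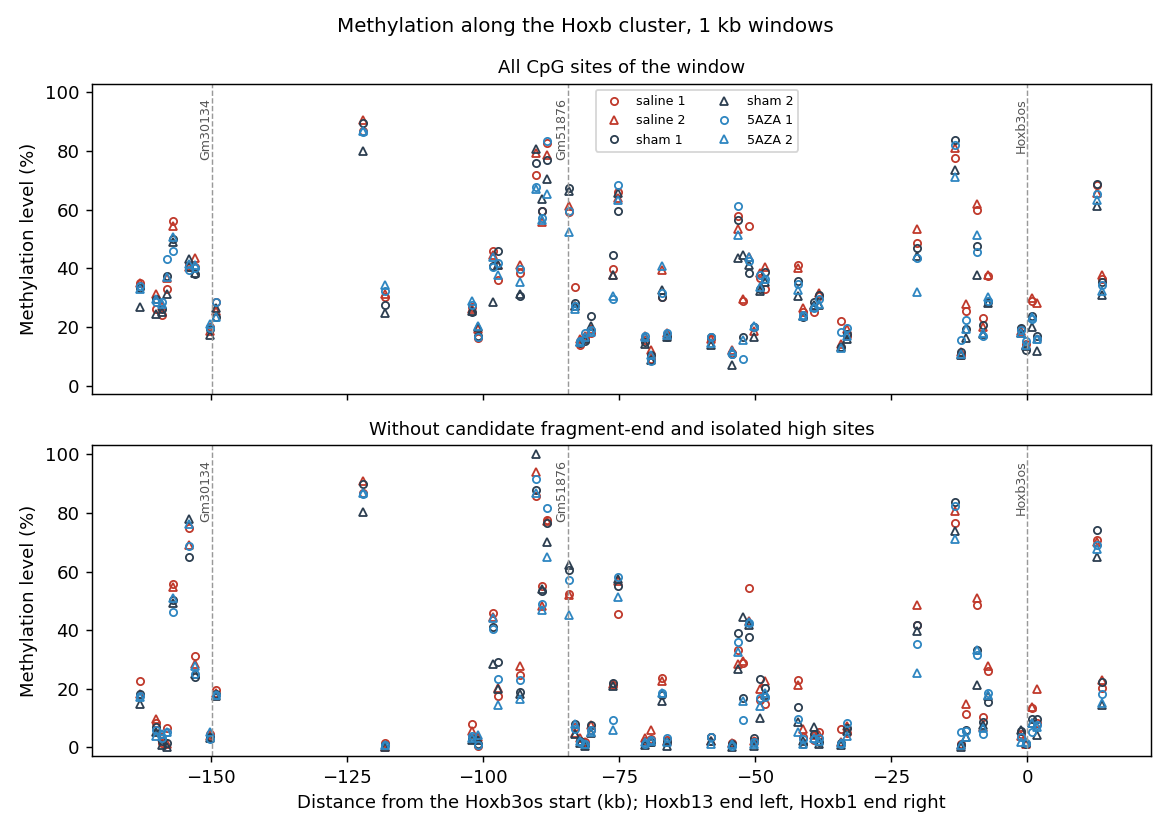
Methylation level in percent of each 1 kb window of the Hoxb cluster in each of 6 libraries, against the distance of the window centre from the Hoxb3os start in kb, over all sites (top) and over retained sites (bottom). Dashed lines mark the placed starts of Gm30134 and Hoxb3os and the approximate start of Gm51876. Windows near 0% alternate with windows of 50% and more, and the libraries of all groups follow the same course.

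Obstruction with saline was compared with sham to ask which stretches differ in the fibrotic kidney. The largest excess of saline over sham, 18.1 points, lay in a stretch from 96203001 to 96217000 around the Hoxb3os start, toward Hoxb1. The next largest, 10.6 and 9.39 points, lay outside it, in the windows from 96116001 and 96163001. No window of the cluster passed an adjusted p of 0.05 in edgeR's quasi-likelihood test with Benjamini-Hochberg adjustment over all 89813 windows (smallest adjusted p = 0.114), where 0.0501% of all windows passed. At an unadjusted p under 0.05, 7 of the 57 windows differed, which is 12.3%, close to the 10.4% of all windows. They were 6 higher in saline, where the share of all windows was 8.71%, and 1 lower, where it was 1.72%. Limma, run on log2 ratios of the 2 read counts, called 0 of all 89813 windows and so 0 in the cluster. Both saline libraries stood above both sham libraries in 24 windows (42.1%, against 32.3% of all windows) and below them in 4 (7.02%, against 9.73%). The median difference was 1.87 points in the cluster and 1.13 points over all windows.

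Of the windows named here, those with an unadjusted p under 0.05 that were not among the 3 largest differences of a comparison were singled out after their values were seen. The smallest p belonged to the window from 96207001 to 96208000, 32 sites within the stretch between the Gm51876 and Hoxb3os starts. Its centre lay at -7.21 kb from the Hoxb3os start. Its level, methylated reads over all reads of the window, was 37.3% and 37.7% in saline, 28.6% and 28.1% in sham, and 28.8% and 30.2% in 5AZA. The saline libraries stood above all 4 others, and the libraries of a group lay close together. Saline exceeded sham by 9.17 points (edgeR adjusted p = 0.114, unadjusted p = 0.000279), and by 8.92 to 10.5 points under the 11 alternatives run, with adjusted p from 0.0597 to 0.541. Of its 26 retained sites 21 were higher in saline than in sham and 5 lower, so that the difference was spread over neighbouring CpGs, which share reads and are not independent.

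Single CpGs of this window showed the same order. At 96207431 saline 1 and 2 had 43.1% and 40.6% on 144 and 138 reads, sham 1 and 2 had 22.6% and 23.1% on 115 and 52 reads, and 5AZA 1 and 2 had 18.5% and 30.3%. The exact 95% interval was 34.8% to 51.6% in saline 1 and 15.3% to 31.3% in sham 1, which do not overlap. The interval of sham 2, 12.5% to 36.8%, overlapped those of saline 1 and of saline 2, which was 32.3% to 49.3%. That CpG was picked with its values in view. By contrast the first CpG of the window, at 96207001, read 14.1% and 13.8% in saline and 16.2% and 17.0% in sham.

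**Figure D3:**
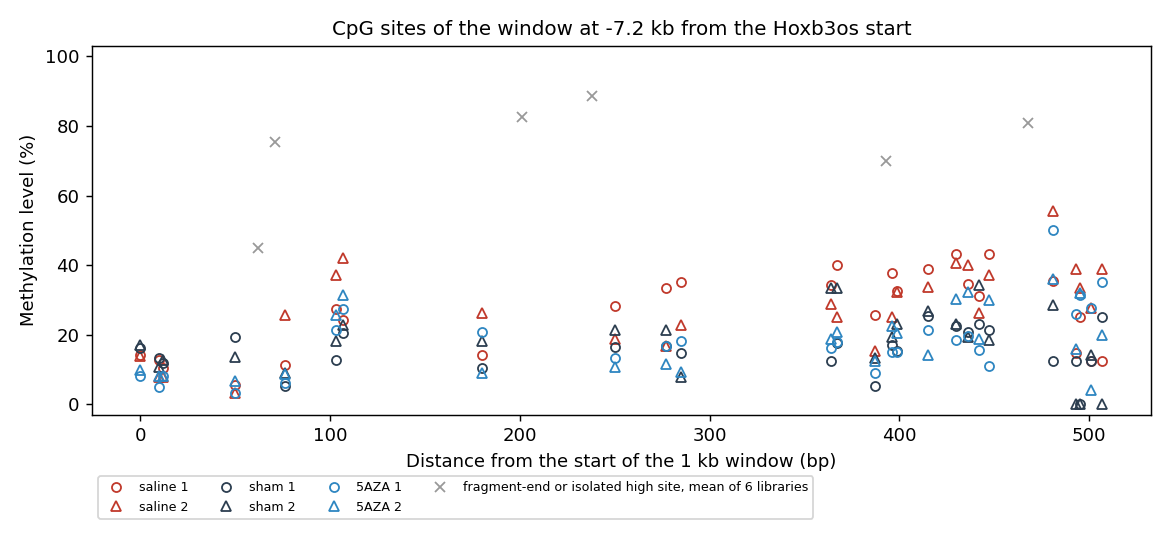
Methylation level in percent of the 32 CpG sites of the window from 96207001 against the distance in bp from the window start; symbols give each library at the 26 retained sites and crosses the mean of 6 libraries at the others. Red saline symbols lie above most dark sham symbols from the CpG at 96207077, near the left of the plot, onward, while the crosses stand at 45.0% to 88.5%.

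The largest difference from sham was in the window from 96205001 to 96206000 (9 sites, 217 to 413 reads) in the same stretch. It had 59.9% and 61.8% in saline, 47.7% and 37.8% in sham, and 45.6% and 51.4% in 5AZA. The groups saline and sham did not overlap, but the sham libraries lay apart, with a mean of 42.8% ± 7.0 (SD, n = 2) against 60.8% ± 1.4 in saline. Saline exceeded sham by 18.1 points (edgeR adjusted p = 0.155). All 7 retained sites were higher in saline, with retained means of 49.7% ± 1.8 and 27.3% ± 8.4 (SD, n = 2 each). The difference was 13.1 points without sham 2 and 23.0 without sham 1. One of its 2 sites set aside, at 96205822, also differed between groups: 92.5% and 96.8% in saline, 62.3% and 52.4% in sham, and 88.9% and 80.3% in 5AZA.

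Further windows of that stretch gave smaller differences in the same direction. The window from 96203001 (17 sites) had 25.3% and 27.9% in saline against 19.4% and 16.4% in sham, a difference of 8.75 points (edgeR adjusted p = 0.225), and 11 of 13 retained sites were higher in saline. Past the Hoxb3os start, the window from 96215001 (12 sites) had 28.9% and 30.0% against 23.9% and 20.1%, a difference of 7.47 points (edgeR adjusted p = 0.252), with 9 of 9 retained sites higher. The window after it, from 96216001 (6 sites), had 16.0% and 28.2% against 16.8% and 11.9%. There the groups overlapped, since saline 1 lay below sham 1, and the difference of 7.78 points was 1.70 without saline 2 and 13.9 without saline 1. In all, 5 of the 8 windows of the stretch had an unadjusted p under 0.05, and its 104 retained sites averaged 14.2% and 15.4% in saline, 9.46% and 8.60% in sham, and 9.27% and 9.32% in 5AZA. The stretch was bounded after these values were seen, as the largest run of nearby windows higher in saline at an unadjusted p under 0.05. Those 5 windows therefore define it, and its count and mean are a description.

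Not every window of that stretch shared the pattern. Over all sites the window of the Hoxb3os start had 14.1% and 13.7% in saline against 12.3% and 13.6% in sham, a difference of 0.971 points, and its retained sites averaged 1.14% and 1.06% against 1.19% and 1.43%. The window before it, from 96213001, had 19.2% and 18.6% against 19.8% and 18.0% over all sites. Its 8 retained sites averaged 4.69% and 3.88% in saline and 5.48% and 5.88% in sham, with 7 lower in saline and 1 higher. The window from 96206001 had 23.2% and 19.9% against 20.6% and 17.6%, and the groups overlapped. Elsewhere the next largest saline excess was in 2 windows of 4 sites each. The window from 96116001 had 45.9% and 44.6% in saline against 40.9% and 28.6% in sham, a difference of 10.6 points (edgeR adjusted p = 0.678) that was 4.41 without sham 2 and 16.7 without sham 1. The window from 96163001 had 54.4% and 44.0% against 38.5% and 41.1%, a difference of 9.39 points (edgeR adjusted p = 0.505) that was 4.18 without saline 1 and 14.6 without saline 2. Each of these differences rested in large part on 1 library. The window from 96172001 (10 sites) had 41.0% and 40.2% in saline against 35.7% and 30.7% in sham, a difference of 7.32 points (edgeR adjusted p = 0.465) that was 4.81 without sham 2. The window from 96121001 (5 sites) had 38.5% and 41.2% against 30.6% and 31.3%, a difference of 8.83 points (edgeR adjusted p = 0.535), and was named after its values were seen.

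Lower values in saline were few. The largest was at the Gm51876 start, in the window from 96130001 to 96131000 (13 sites, 455 to 639 reads), with 59.3% and 61.3% in saline, 67.4% and 66.5% in sham, and 59.7% and 52.4% in 5AZA. The sham libraries stood above the other 4, and saline lay below sham with a signed difference of -6.62 points (edgeR adjusted p = 0.466). Of its 10 retained sites 8 were lower in saline. The windows from 96117001 and 96125001, also in the gap before Hoxb9, differed by -5.02 and -3.85 points (edgeR adjusted p = 0.651 and 0.676). The former was -2.55 without saline 1 and -2.73 without sham 1, and the latter -1.92 without saline 2, -1.91 without sham 2, -5.79 without sham 1 and -2.44 without candidate fragment-end sites. In the second the groups overlapped, and 8 of its 16 retained sites were higher and 8 lower.

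**Figure D4:**
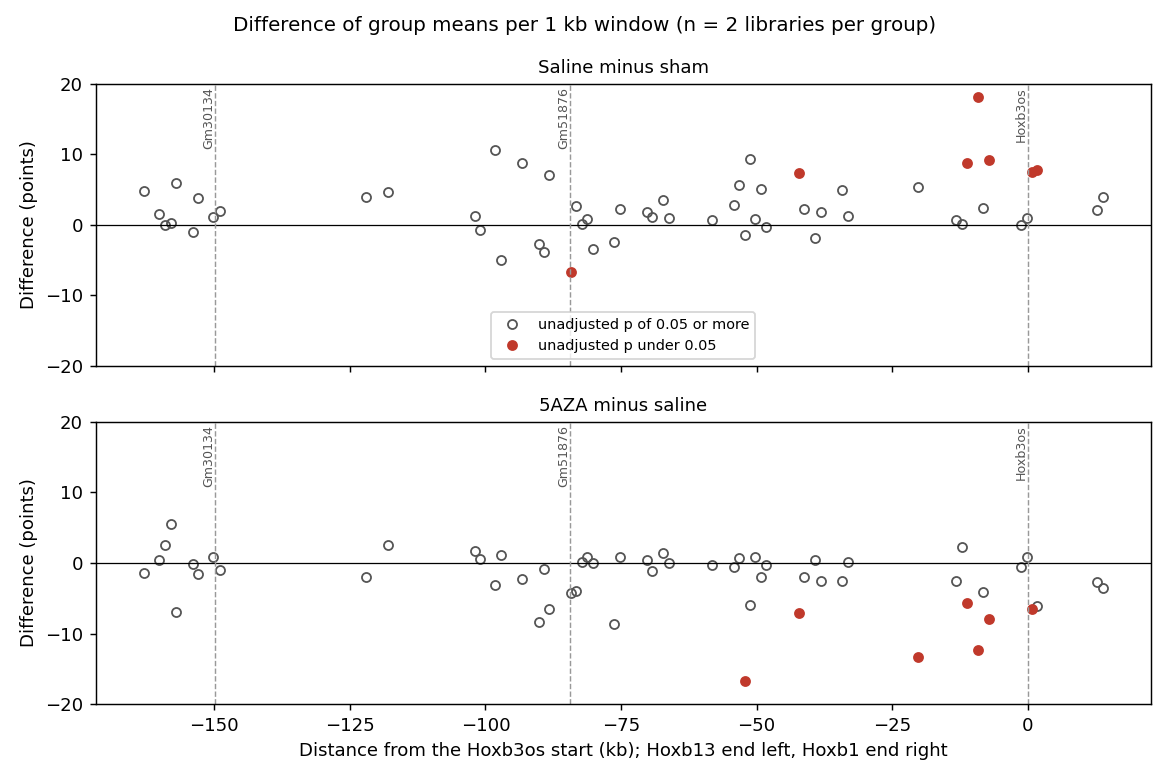
Difference of group means in percentage points (n = 2 libraries per group) of each 1 kb window against distance from the Hoxb3os start in kb, for saline minus sham (top) and 5AZA minus saline (bottom); filled points have an unadjusted edgeR p under 0.05 and open points do not. Of the 7 filled points of each panel, 5 in the top and 4 in the bottom lie in the stretch from 96203001 to 96217000. The 5 of the top panel define that stretch, and both panels use the saline libraries. No window passed after adjustment.

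Obstruction with 5AZA was compared with obstruction with saline to ask which stretches differ under the drug. This comparison shares the saline libraries with the one above, so that the windows in which saline was high had to tend lower here, and the values are given side by side for that reason. No window of the cluster passed an adjusted p of 0.05 in edgeR's quasi-likelihood test (smallest adjusted p = 0.0502). Over all windows 1.55% passed in edgeR, while limma called 0 of all 89813 and so 0 in the cluster. At an unadjusted p under 0.05, 7 windows were lower in 5AZA and 0 higher. That is 12.3% of the cluster's windows against 23.2% of all windows, of which 22.8% were lower and 0.416% higher. Both 5AZA libraries stood below both saline libraries in 20 windows (35.1%, against 49.1% of all) and above them in 5 (8.77%, against 5.69%). The median difference was -1.16 points in the cluster, -2.70 over all windows and -0.0993 over all windows with a level under 40%.

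The window from 96194001 to 96195000 (12 sites, 486 to 1079 reads) had the second largest difference from saline and the largest among windows of more than 3 sites. It had 43.7% and 31.8% in 5AZA, 48.8% and 53.3% in saline, and 47.1% and 44.2% in sham. Both 5AZA libraries lay below all 4 others, with 5AZA 2 much lower than 5AZA 1. The difference from saline was -13.3 points (edgeR adjusted p = 0.0705), and all 10 retained sites were lower in 5AZA. Without 5AZA 2 it was -7.34 points, and without 5AZA 1 it was -19.3 with an edgeR adjusted p of 0.0324, under the threshold. It also passed with no minimum of sites per window (edgeR adjusted p = 0.0387), and over its 12 alternatives the adjusted p ran from 0.0232 to 0.405.

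The largest difference, -16.7 points in the window from 96162001 (edgeR adjusted p = 0.101), rested on 3 CpGs within 20 bases of each other. Each CpG had 18 to 98 reads in a library, and the 54 to 294 reads of the window are sums over the 3. The level of the window was 9.20% and 15.7% in 5AZA, 28.9% and 29.4% in saline, and 16.7% and 44.4% in sham. Sham 1 and sham 2 lay on either side of saline, so the sham mean of 30.6% ± 19.6 (SD, n = 2) carries little information. At the CpG at 96162110, 5AZA 1 had 6.90% on 29 reads, with an exact 95% interval of 0.846% to 22.8%, and sham 2 had 44.4% on 18 reads, with 21.5% to 69.2%.

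In the stretch toward Hoxb1 the 5AZA libraries lay near sham. The window from 96207001 differed from saline by -7.97 points (edgeR adjusted p = 0.0502, unadjusted p = 0.000803), and 23 of 26 retained sites were lower in 5AZA. With no minimum of sites per window it passed the threshold (edgeR adjusted p = 0.0365), and over its 12 alternatives the adjusted p ran from 0.00506 to 0.298. The window from 96205001 differed by -12.3 points (edgeR adjusted p = 0.119), with 7 of 7 retained sites lower. The windows from 96203001 and 96215001 differed by -5.69 and -6.51 points, with 22.5% and 19.3% and 22.6% and 23.3% in the 5AZA libraries. All 13 and all 9 of their retained sites were lower in 5AZA than in saline. The window from 96172001, with 34.6% and 32.5% in 5AZA, differed by -7.02 points (edgeR adjusted p = 0.207). Without candidate fragment-end and isolated high sites that difference was -14.1 points. Of the 57 windows 20 were higher in 5AZA, and the largest such differences, in the windows from 96056001, 96055001 and 96096001, were 5.46, 2.50 and 2.48 points (edgeR adjusted p = 0.389, 0.511 and 0.753). Each depended on single libraries or sites. The first was 2.31 points without 5AZA 1 and 3.51 without saline 1, the second 0.871 without saline 1, and the last 1.44 without 5AZA 2 and 0.0796 without candidate fragment-end and isolated high sites. Without those sites the first 2 were 2.27 and 1.06 points.

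**Figure D5:**
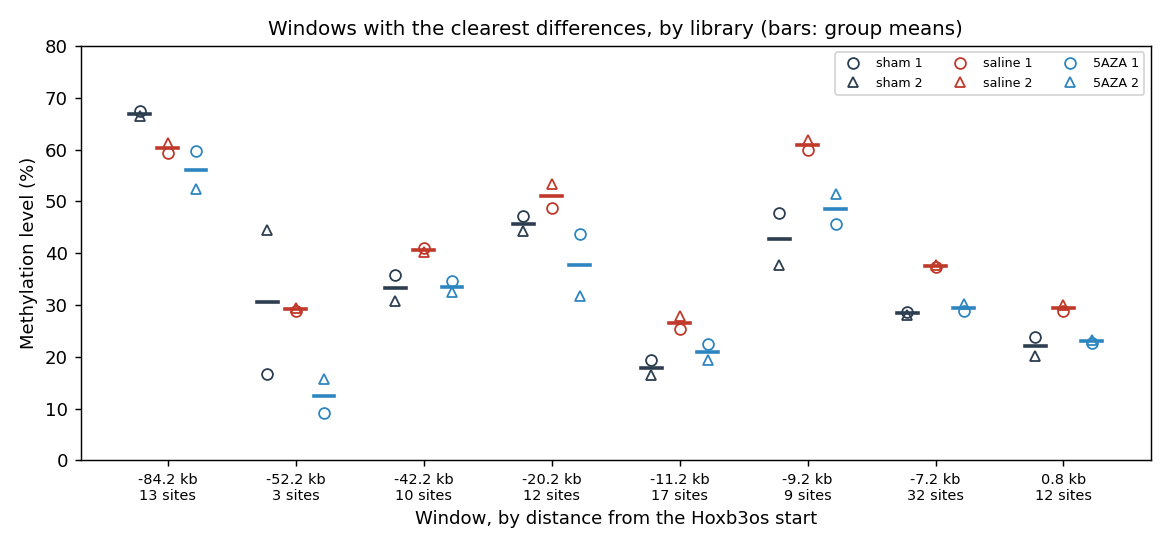
Methylation level in percent over all sites of 8 windows in each library, with group means as bars. Windows are labelled by the distance of their centre from the Hoxb3os start in kb and by their number of sites. In the windows at -42.2, -20.2, -11.2, -9.2, -7.2 and 0.8 kb both saline libraries lie above all other libraries, and at -52.2 kb the sham libraries lie far apart. Windows were plotted for an unadjusted edgeR p under 0.05 without overlap of libraries, in saline against sham or 5AZA against saline. The separation shown was therefore in part selected for.

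5AZA was also set against sham, to ask where drug-treated obstructed kidneys differed from sham-operated ones. No window of the cluster passed an adjusted p of 0.05 in edgeR's quasi-likelihood test (smallest adjusted p = 0.160). Over all windows 0.00111% passed in edgeR, while limma called 0 of all 89813 and so 0 in the cluster. At an unadjusted p under 0.05, 2 windows were lower and 0 higher, or 3.51%, against 14.7% of all windows, of which 13.3% were lower and 1.43% higher. Both 5AZA libraries stood above both sham libraries in 13 windows (22.8%, against 12.9% of all) and below them in 9 (15.8%, against 31.9%). The median difference was 1.02 points in the cluster, -1.12 over all windows and 1.03 over all windows with a level under 40%.

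The window of the Gm51876 start, from 96130001, had the smallest p, with a difference of -10.9 points (edgeR adjusted p = 0.160, unadjusted p = 0.00379) and 8 of 10 retained sites lower in 5AZA, and was -7.19 points without 5AZA 2. The window from 96138001 (7 sites, 101 to 219 reads) had 29.4% and 30.6% in 5AZA, 44.5% and 37.6% in sham, and 39.8% and 37.6% in saline. Both 5AZA libraries lay below the other 4, and the difference from sham was -11.1 points (edgeR adjusted p = 0.256). Over its 5 retained sites, all lower in 5AZA, the levels were 9.47% and 6.00% in 5AZA, 21.9% and 21.0% in sham, and 21.4% and 21.7% in saline. The window from 96162001 differed from sham by -18.1 points (edgeR adjusted p = 0.356), a value that was -4.23 without sham 2 and -32.0 without sham 1. The window from 96124001, with 3 sites, differed by -11.1 points (edgeR adjusted p = 0.343), but its 2 retained sites differed by only -4.80.

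The largest excesses of 5AZA over sham were 7.45, 7.11 and 6.55 points in the windows from 96116001, 96096001 and 96121001 (edgeR adjusted p = 0.707, 0.447 and 0.525). In the window from 96116001, 5AZA had 40.5% and 43.9% against 40.9% and 28.6% in sham, and the difference was 1.31 points without sham 2. In the window from 96096001, 5AZA had 32.2% and 34.3% against 27.5% and 24.8% in sham over all 5 sites, but its 3 retained sites averaged at most 1.61% in any library. The excess in that window therefore lay in the sites set aside. In the window from 96121001 the levels were 39.7% and 35.4% in 5AZA and 30.6% and 31.3% in sham, but with candidate fragment-end and isolated high sites left out 5AZA exceeded sham by only 1.88 points.

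The other Hox clusters and the genes that act with Hox proteins gave a background for the low levels at Gm30134 and Hoxb3os. Of 29 other Hox genes 19 had a promoter sequence and 10 were placed, of which 9 had measured CpGs outside CCGG. Their mean over the libraries ran from 2.02% to 33.0%, with a median of 2.62%. The 2 highest were Hoxd12 at 33.0% (3 CpGs) and Hoxa5 at 20.6% (5 CpGs), and the others stood below 4%. Hoxa5, which the series title names, had 31.7% and 42.6% in saline, 14.1% and 8.50% in sham, and 16.9% and 9.77% in 5AZA over those CpGs. Of 19 cofactors and regulators, such as Meis3 and Pbx2, which bind DNA beside Hox proteins, and Kmt2a and Suz12, which maintain and silence Hox genes, 9 were placed and 7 measured, from 0.555% to 3.12%. Gm30134, at 3.87% to 4.76% over its 3 starts, lay within the range of the other Hox genes, Hoxb3os, at 1.40%, below it, and Gm51876, at 68.9%, above it.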

How the data were processed

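Each library's deposited file lists CpG sites with the authors' count of covering reads, count of methylated reads and methylated fraction. The files have no header. Starts were read as 0-based and positions are printed 1-based. The deposited fraction equalled methylated over covering reads in every row. The submitters' processing notes name Bowtie and mm9. The methylation caller was not given in the sources used here, nor were trimming and filters.

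Per the labels' protocols, inserts of 40 to 120 and 120 to 220 bp were selected. Groups follow the treatment labels. Sites with at least 10 reads in all 6 libraries were used. Methylated and unmethylated read counts summed over 1 kb windows of at least 3 sites entered edgeR 4.0.16 under R 4.3.3. The functions were glmQLFit and glmQLFTest, with an intercept for each library, a group effect and no replicate block. The common dispersion was 0.00632 over 6 libraries, and Benjamini-Hochberg adjustment ran over 89813 windows. The cluster mean weighs sites equally, the window level weighs them by reads, and retained-site means weigh them equally. With 2 libraries per group the precision of every mean is low.

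The text names the 3 largest higher and 3 largest lower differences per comparison, any window called, and windows of placed starts. The members, lists and rules were chosen with earlier results of these data known. Alternatives were coverage minimums of 5 and 20, windows of 500 bp, no site minimum, site filters, limma 3.58.1 (1 added to each count), 4-library fits, each library left out and a replicate block. Other steps used scipy 1.17.1 and pandas 2.3.3 under Python 3.11.15.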

Additional observations from a re-analysis of the deposited data

How the results depend on the processing

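Over the cluster mean, the difference between 5AZA and saline, -2.37 points, became 0.423 as methylated reads over all reads, and that between 5AZA and sham, 0.0631, became -0.154 without candidate fragment-end sites and -0.488 without isolated high sites as well, an alternative added after the data were seen. Leaving out each library in turn gave 1.54 to 3.33 points for saline against sham, -2.95 to -1.80 for 5AZA against saline and -0.834 to 0.960 for 5AZA against sham, which was -0.834 without sham 2 and -0.516 without 5AZA 1. The cause was not tested. The count of windows called between 5AZA and saline was 2 with no minimum of sites per window, the windows from 96194001 and 96207001, and 0 to 1 with each library left out, the 1 being the window from 96194001 without 5AZA 1. With the replicate block it was 5, the windows from 96162001, 96194001, 96205001, 96207001 and 96215001 (edgeR adjusted p = 0.0254, 0.0232, 0.0465, 0.00506 and 0.0485). Over the genome the block called 6856 of 89813 windows, and the fit with no minimum of sites called 3749 of 138638. The deviations of same-numbered saline and 5AZA libraries correlated at 0.0762 over windows. The common dispersion was 0.00224 with the block and 0.00476 in the same 4 libraries without it. Whether same-numbered libraries share more than a number was not tested. No block was run against sham, whose labels share no replicate numbers with the other groups. No other alternative called a window of the cluster, and each such count of 0 leaves calls elsewhere in the genome aside. Of 307 alternatives of 28 differences of single windows, 299 kept direction and side of the threshold, 8 passed it and 0 reversed. With limma, the 4-library fits, the replicate block and no site minimum the difference was the same by construction, so its direction could not reverse. Limma and both site filters called 0 windows of the genome, so no window of the cluster could pass there. A group left with 1 library was given the spread of the other groups. With a median of 32 to 66 reads per site, single CpGs are read with wide counting error in every library.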
